A study of Mus musculus with 6 samples.

Results

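The regions described here are FXR ChIP-seq peaks of mouse liver that the deposited annotation placed in the first intron of a transcript. A peak was a member when its annotation began with "intron" and named intron 1. The rule used no measured value. It selected 3911 of the 20040 peaks in the WT list and 2467 of the 12495 peaks in the LKO list. Both groups were male C57BL/6 livers homozygous for a floxed Bcl6 allele. WT (Bcl6 fl/fl) carried no Cre, and LKO carried Alb-cre, which the study used to delete Bcl6 in hepatocytes. Recombination in other liver cells was not checked here, and the ages of the mice are not given in the sources used here. Each genotype had 1 input library of chromatin that was not immunoprecipitated, besides 2 ChIP libraries.

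FXR (Nr1h4) is the nuclear receptor that senses bile acids. It binds DNA mainly as a heterodimer with RXR, and its preferred element is IR1, an inverted repeat in which the half-site AGGTCA is followed after 1 base by TGACCT. BCL6 is a zinc-finger transcriptional repressor with its own recognition sequence. First introns are often long, begin close to the transcription start site (TSS) and commonly hold enhancers, so that many binding events near a gene fall there and not in its promoter.

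Library totals ranged from 19022618 to 22637613 tags in 3 of the 4 ChIP libraries, while WT replicate 2 had 2883717. The inputs had 6964271 and 6935001 tags. In WT replicate 2 a member rested on a median of 9.12 estimated tags, against 39.7 in the other WT library and 36.5 and 34.1 in the LKO libraries. Of genes that mark hepatocytes, 8 of 8 had a peak assigned in each list, Alb, Ttr and Cps1 among them. Kupffer cell markers had one for 1 of 6 genes in each list, stellate markers for 3 of 6 in each, endothelial markers for 4 of 6 in WT and 3 of 6 in LKO, and cholangiocyte markers for 2 of 6 in WT and 1 of 6 in LKO. The share of all genes with a peak assigned was not computed beside these counts. Bcl6 deletion cannot be read from ChIP tags and was not checked.

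The sequences of 10 members are shown because the results below turn on them. All are the plus strand of mm10 (GRCm38.p6), lower case, and capitals mark the best IR1 where it had at most 2 mismatches in its 12 scored bases. Where sites tied, only the leftmost is marked. The first set holds the 5 shared members with the highest level in WT, which were also the 5 highest in LKO. They lie in the first introns of Arhgef7 (chr8:11754811-11755021), Zc3h6 (chr2:128968049-128968259), Ccdc38 (chr10:93543303-93543513), Cyrib (chr15:63997780-63997990) and Mafg (chr11:120630627-120630837).
Arhgef7: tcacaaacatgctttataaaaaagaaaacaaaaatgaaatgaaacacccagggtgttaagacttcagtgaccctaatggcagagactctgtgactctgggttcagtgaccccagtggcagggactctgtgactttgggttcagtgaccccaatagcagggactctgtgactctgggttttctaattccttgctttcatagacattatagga
Zc3h6: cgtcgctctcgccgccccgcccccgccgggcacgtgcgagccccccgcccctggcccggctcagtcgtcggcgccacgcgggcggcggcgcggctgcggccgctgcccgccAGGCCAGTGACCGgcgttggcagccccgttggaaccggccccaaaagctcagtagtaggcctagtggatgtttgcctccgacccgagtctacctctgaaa
Ccdc38: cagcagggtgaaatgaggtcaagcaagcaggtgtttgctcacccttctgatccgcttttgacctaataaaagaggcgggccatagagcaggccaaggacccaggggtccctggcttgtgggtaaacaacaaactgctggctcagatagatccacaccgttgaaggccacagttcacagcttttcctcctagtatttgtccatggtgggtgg
Cyrib: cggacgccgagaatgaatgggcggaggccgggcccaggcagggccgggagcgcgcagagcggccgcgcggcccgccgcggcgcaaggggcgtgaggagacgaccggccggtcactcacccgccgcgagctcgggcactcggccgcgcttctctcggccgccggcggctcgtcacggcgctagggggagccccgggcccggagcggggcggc
Mafg: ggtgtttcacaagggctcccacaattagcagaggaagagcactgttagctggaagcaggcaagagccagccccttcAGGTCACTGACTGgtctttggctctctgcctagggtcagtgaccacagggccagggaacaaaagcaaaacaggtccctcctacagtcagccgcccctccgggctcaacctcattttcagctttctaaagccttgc

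The second set holds the 3 strongest WT members with an IR1 of at most 1 mismatch, in B4galt5 (chr2:167319096-167319306), Zfp950 (chr19:61138735-61138945) and Asap3 (chr4:136214942-136215152). Counted from 1 at the left end of the 13-base element, the B4galt5 site carried C12T, the Zfp950 site A10C and the Asap3 site C5T, each written as consensus base, position and observed base. The marked Mafg site in the first set carried C12T and T13G, and the Zc3h6 site T4C and T13G. Further right in the Mafg peak an unmarked stretch had equally few mismatches, at its first and last bases.
B4galt5: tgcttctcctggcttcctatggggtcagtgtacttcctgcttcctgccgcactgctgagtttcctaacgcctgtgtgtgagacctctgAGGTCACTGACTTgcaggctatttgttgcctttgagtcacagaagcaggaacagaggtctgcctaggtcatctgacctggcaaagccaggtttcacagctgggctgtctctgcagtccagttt
Zfp950: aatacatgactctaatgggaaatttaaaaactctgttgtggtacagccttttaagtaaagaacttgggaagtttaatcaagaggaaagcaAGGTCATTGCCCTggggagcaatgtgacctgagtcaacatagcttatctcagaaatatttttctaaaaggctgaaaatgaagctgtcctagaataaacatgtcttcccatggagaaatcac
Asap3: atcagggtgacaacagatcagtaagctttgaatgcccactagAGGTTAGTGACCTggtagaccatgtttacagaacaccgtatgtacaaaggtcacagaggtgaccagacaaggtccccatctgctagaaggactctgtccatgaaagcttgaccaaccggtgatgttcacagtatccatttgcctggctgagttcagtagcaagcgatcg

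The third set shows the strongest member of Klb, the FGF15 co-receptor beta-Klotho (chr5:65367964-65368174), and the only member of Fgfr4, the FGF15 receptor (chr13:55153020-55153230). Neither held an IR1 within the limit. The fewest mismatches were 5 at Klb and 4 at Fgfr4.
Klb: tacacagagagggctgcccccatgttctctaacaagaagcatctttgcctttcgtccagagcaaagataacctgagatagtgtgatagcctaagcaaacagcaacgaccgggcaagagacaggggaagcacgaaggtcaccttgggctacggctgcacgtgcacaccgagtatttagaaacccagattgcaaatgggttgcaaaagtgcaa
Fgfr4: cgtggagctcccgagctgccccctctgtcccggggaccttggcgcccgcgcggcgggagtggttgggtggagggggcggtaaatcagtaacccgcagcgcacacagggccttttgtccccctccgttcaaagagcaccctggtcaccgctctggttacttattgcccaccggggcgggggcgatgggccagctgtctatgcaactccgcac

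The first comparison asked where FXR peaks lay. First introns held close to 1 peak in 5 of both lists, and the share did not differ between genotypes beyond counting error. The WT share was 19.5%, with a 95% interval by the Wilson method of 19.0 to 20.1%, and the LKO share was 19.7%, with 19.1 to 20.5%. Later introns held 27.0% and 27.7%, promoters (1 kb upstream to 100 bp downstream of a TSS) 11.4% and 11.3%, and intergenic sequence 35.3% and 34.3%. Peaks were called on pooled libraries, so these shares have no replicate spread. The intervals cover counting error only.

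Members lay well inside the gene but were denser toward its start. The median distance to the nearest TSS was 6130 bp in WT (95% interval 5786 to 6492) and 6292 bp in LKO (5785 to 6836), and 90 in 100 members lay between 396 and 56892 bp in WT. Of 3911 WT members, 665 lay within 1 kb of a TSS, 1118 at 1 to 5 kb, 1292 at 5 to 20 kb, 596 at 20 to 50 kb and 240 beyond 50 kb. A RefSeq first intron was found around 3873 WT and 2440 LKO members, with a median intron length of 23156 and 23282 bp. With the intron divided into 10 equal stretches, the one next to the first exon held 18.7% of WT and 18.6% of LKO members, and the one at the far end 6.74% and 6.84%.

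First introns cover much less of the genome than later introns, so peaks were also counted per megabase of intron. For this count both peaks and bases were classed by RefSeq geometry alone, which kept 97.8% of WT and 97.9% of LKO members and added peaks that the deposited annotation classed otherwise, 4251 WT peaks in all. First introns had 14.9 WT peaks per Mb (14.4 to 15.3, exact Poisson) and later introns 7.65 (7.44 to 7.86). In LKO the densities were 9.35 (9.0 to 9.71) and 4.89 (4.72 to 5.06). The densities were also compared at equal distance from a TSS. Within 1 kb, first introns had 50.1 WT peaks per Mb (46.4 to 54.0) and later introns 43.1 (31.4 to 57.7), which overlapped, and in LKO 32.8 (29.9 to 36) and 21.1 (13.2 to 31.9), which overlapped too. At 1 to 5 kb, first introns had 21.3 WT peaks per Mb (20.1 to 22.5) against 13.5 (12.3 to 14.8), and at 20 to 50 kb 10.8 (9.95 to 11.6) against 8.50 (8.07 to 8.95). Beyond 50 kb first introns had 4.47 (3.95 to 5.03) and later introns 4.78 (4.54 to 5.03), a difference within the intervals.

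**Figure D1:**
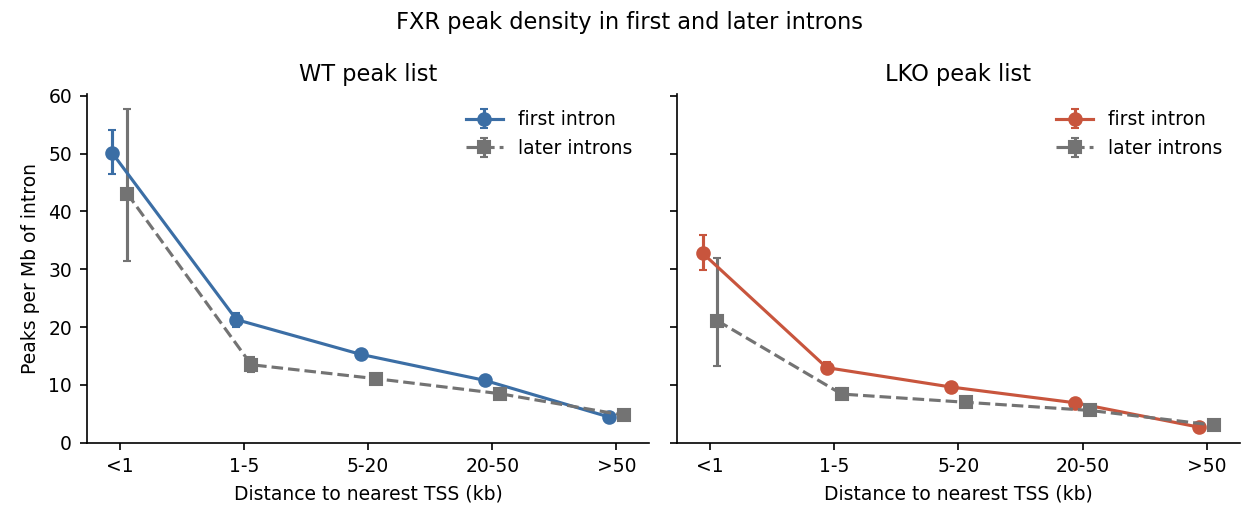
FXR peaks per Mb of intron (vertical axis) by distance to the nearest TSS in kb (horizontal axis), for first introns (circles) and later introns (squares), WT list on the left and LKO list on the right, with 95% Poisson intervals. Density fell with distance in both intron classes, from 50.1 WT peaks per Mb within 1 kb in first introns to 4.47 beyond 50 kb, where the classes met.

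CpG islands, stretches rich in C and G that often mark gene starts, were named far more often at members than at later-intron peaks. The detailed annotation named a CpG island for 248 WT members, 6.34% (5.62 to 7.15%), and for 168 LKO members, 6.81% (5.88 to 7.87%). Later introns had 0.703% and 0.637%, while the detailed annotation gives promoters their own class and names none there. Members made up 64.8% of the WT peaks so annotated and 66.9% of the LKO peaks. CpG island members were close to the TSS, at a median of 429 bp in WT, and had 65.9% G and C bases against 49.3% in the other WT members. Their median WT log2 tags were 4.81 and 5.34, against 4.30 and 4.90 in the other members. Their input was higher too, at -0.08 against -0.39, and its part in the level was not tested.

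The second comparison asked how strongly members were bound beside other peaks of the same table. Values are the deposited log2 tags, which HOMER scaled to library totals separately for each table. Members stood at the level of the whole list. The WT medians were 4.33 (replicate 1) and 4.93 (replicate 2), and the LKO medians 4.86 and 4.68. In whole liver, more bound cells and more binding per cell cannot be told apart. Less the median of all peaks of the table, the WT members stood at 0.002 ± 0.024 (SD, n = 2 libraries) on the log2 scale and the LKO members at -0.004 ± 0.006, no further from 0 than the spread between replicates. Promoter peaks stood higher in every library, by 0.195 and 0.180 in WT and by 0.132 and 0.159 in LKO. Later introns stood lower in every library, at -0.075 and -0.074 in WT and -0.044 and -0.057 in LKO. Within 1 kb of a TSS the 2 WT medians of members were 4.51 and 5.05, and beyond 50 kb 4.02 and 4.74.

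The 5 members named above had the highest levels in both genotypes. At Ccdc38 and Cyrib both LKO libraries stood above both WT libraries, and at the other 3 they overlapped. Values below are log2 tags relative to the median of the library over all shared peaks. The Arhgef7 peak, in a guanine nucleotide exchange factor gene, stood at 3.64 and 4.23 in WT and 3.89 and 4.02 in LKO. The LKO values lay between the WT values. The Mafg peak stood at 3.38 and 3.59 in WT and 3.57 and 3.66 in LKO, and these ranges overlapped. The Ccdc38 peak stood at 3.54 and 3.92 in WT and 3.92 and 3.94 in LKO, the nearest values alike to 2 decimals. Cyrib, a RAC1 interactor, had 3.46 and 3.81 in WT and 3.85 and 4.01 in LKO, and Zc3h6 had 3.43 and 4.04 in WT and 3.68 and 3.90 in LKO. Mafg encodes a small MAF repressor that FXR is known to induce and that represses bile acid synthesis genes. Input was above the 95th percentile of the WT table (1.85 log2 tags) at 3 of the 5, with 4.37 at Zc3h6, 2.39 at Ccdc38 and 5.76 at Cyrib, which the table lists as Fam49b. The LKO inputs there were 5.31 at Zc3h6, 0.58 at Ccdc38 and 6.21 at Cyrib, against an LKO 95th percentile of 2.49. At Arhgef7 and Mafg the WT input was 0.25 and 1.30. The part of input in these levels was not tested.

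The third comparison asked which members were found in both genotypes. Of WT members, 1976 (50.5%, 49.0 to 52.1%) overlapped an LKO peak by 1 bp or more, and of LKO members, 1978 (80.2%, 78.6 to 81.7%) overlapped a WT peak. The background was 49.5% of all WT peaks and 79.4% of all LKO peaks, so members were shared about as often as any peak. Both peaks were members in 1960 pairs. In another 34 pairs only 1 of the 2 peaks was a member. The lists differ in length and in depth.

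Sharing followed the strength of the peak far more than its place. In the weakest quartile of the WT list 14.0% of members were shared (11.9 to 16.4%), and in the strongest 90.8% (88.8 to 92.4%). In LKO the weakest had 60.7% (56.7 to 64.5%) and the strongest 96.7% (94.9 to 97.9%). All peaks of the same quartiles ran from 13.9 to 90.3% in WT and from 57.5 to 96.5% in LKO. By distance, 53.8% of WT members within 1 kb of a TSS were shared and 42.5% of those beyond 50 kb (36.4 to 48.8%). In LKO these were 82.4% (78.5 to 85.7%) and 69.9% (62.0 to 76.7%). The distant members were also weaker, as given above.

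**Figure D2:**
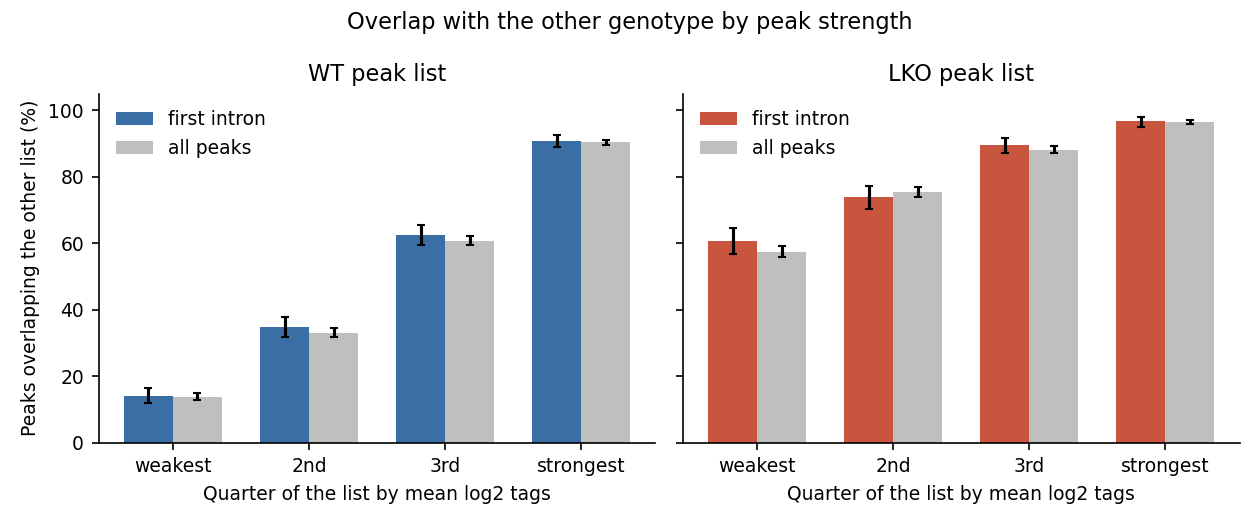
Share of peaks overlapping the other list (percent, vertical axis) in quartiles of each list by mean log2 tags (horizontal axis), for first-intron members (coloured) and all peaks (grey), with 95% Wilson intervals. Members and all peaks rose together, in WT from 14.0 and 13.9% to 90.8 and 90.3%.

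The strongest members found in 1 list only were chosen among those without high input. In WT they lay in Zfhx2, Zmiz1 and Glt1d1. The Zfhx2 peak (chr14:55079631-55079841) had 7.87 and 8.35 log2 tags and ranked 16 among WT members. The Zmiz1 peak (chr14:25489416-25489626) had 6.03 and 6.66, and ranked 340. Zmiz1 encodes a PIAS-like transcriptional coregulator. In LKO they lay in Tmem37, Efnb2 and Prlr, the prolactin receptor gene. The Tmem37 peak (chr1:120071246-120071450) had 6.28 and 6.52, the Efnb2 peak 6.43 and 6.27 and the Prlr peak 6.41 and 6.03. None of the 6 held an IR1 within the limit. Most members of 1 list were weak, with WT-only medians of 3.78 and 4.42 against 5.00 and 5.51 in shared members.

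The fourth comparison asked how often members carried the FXR element. An IR1 lay within 100 bp of the centre of 452 WT members, 11.6% (10.6 to 12.6%), and of 400 LKO members, 16.2% (14.8 to 17.7%). Windows 2 kb away held one in 1.10% and 1.30%, and equally long windows of 32851 RefSeq promoters in 0.770%. All peaks held one in 11.8% and 16.2%. Promoter peaks held it less often, in 6.41% (5.48 to 7.49%) of WT and 8.39% (7.05 to 9.96%) of LKO, and later-intron peaks in 13.3% (12.4 to 14.2%) and 18.4% (17.1 to 19.7%). The element sat at the peak: 69.7% of the WT sites and 69.2% of the LKO sites lay within 25 bp of the centre.

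**Figure D3:**
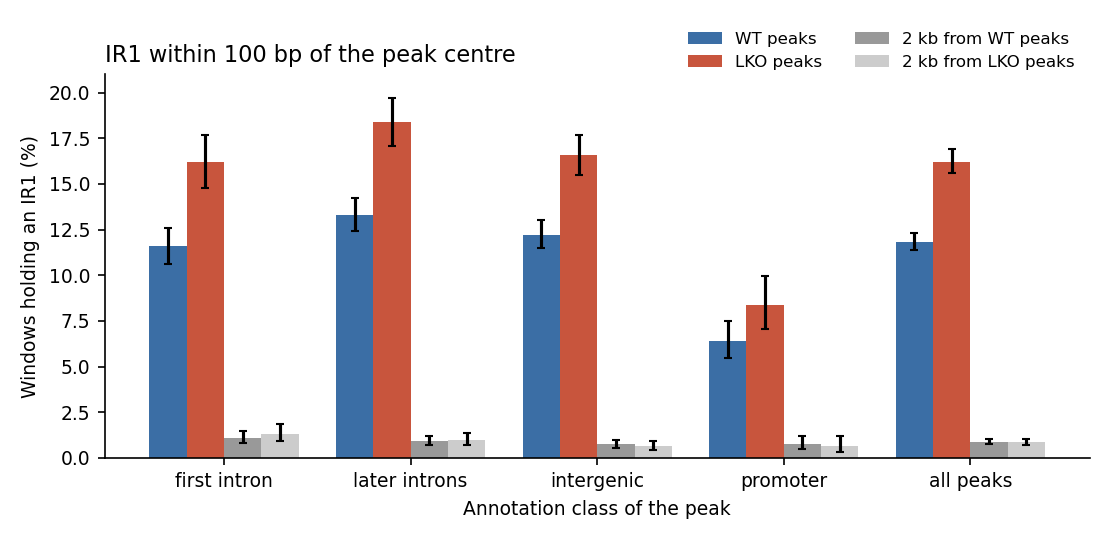
Share of windows reaching 100 bp to each side that held an IR1 of at most 2 mismatches (percent, vertical axis) by annotation class (horizontal axis), at WT and LKO peaks and 2 kb away, with 95% Wilson intervals. First-intron members reached 11.6% and 16.2%, above promoter peaks at 6.41% and 8.39%, and all shifted windows lay near 1%.

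CpG island members carried the element least, in 6.05% (3.70 to 9.74%) of WT and 7.14% (4.13 to 12.1%) of LKO against 11.9% (10.9 to 13%) and 16.9% (15.4 to 18.5%) of the other members. In the strongest quartile of the WT list 20.6% of members held an IR1, and in the weakest 7.79%. Members with an IR1 had median log2 tags of 4.91 and 5.50 in WT and 5.33 and 5.02 in LKO, against 4.29, 4.89, 4.79 and 4.61 in those without. Shared members held it about equally often, in 16.6% (15.0 to 18.3%) of the WT list and 16.8% (15.2 to 18.5%) of the LKO list. WT-only members held it in 6.41% (5.40 to 7.59%) and LKO-only members in 13.9% (11.1 to 17.3%). The same shares over all peaks of 1 list only were not computed, so nothing particular to first introns is read from them. With the WT list limited to as many of its strongest peaks as the LKO list holds, which was tried only once the values were known, the WT share was 13.7% (12.4 to 15.1%). The 3 strongest with at most 1 mismatch are those printed above. Relative to the library median over shared peaks, B4galt5, a galactosyltransferase gene, stood at 2.80 and 2.95 in WT and 3.10 and 3.32 in LKO, the LKO values higher. Zfp950 stood at 2.88 and 2.85 in WT and 3.10 and 3.04 in LKO, with a WT input of 1.91. Asap3 had 2.35 and 2.81 in WT and 2.53 and 2.76 in LKO, which overlapped.

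Other elements were sought in the same windows on both strands. The single half-site AGGTCA, which the IR1 can contain, was in 40.5% of WT and 41.4% of LKO members, against 13.5% of shifted windows in both. A direct repeat of the half-site with 1 base between was in 12.8% and 11.5%, against 3.22% and 2.96%. The C/EBP letters TTGCNNAA were in 15.8% and 15.2%, against 7.08% and 6.00%, and the FOXA letters TGTTTAC in 6.57% and 6.73%, against 2.48% and 2.31%. The letters TTCNNNGAA, shared by BCL6 and STAT factors, were in 5.78% of WT members (5.09 to 6.55%) and 5.73% of shifted windows (5.04 to 6.50%). In LKO they were in 5.59% (4.75 to 6.57%) and 5.47% (4.64 to 6.44%), a difference within the intervals. In all RefSeq promoters the shares were 11.4% for the half-site, 2.53% for the direct repeat, 7.51% for C/EBP, 2.52% for FOXA and 5.51% for BCL6 and STAT.

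The fifth comparison set levels of the 1960 shared members across genotypes. The tables were normalized separately and 2 libraries against 2 cannot give a two-sided exact permutation p below 1 in 3, so no test was run and values are relative to the library median over all 9918 shared peaks. The median difference of LKO minus WT was 0.034 on the log2 scale, with single pairs of libraries at 0.030 to 0.052, beside 0.026 over all shared peaks. The middle 50% of members lay between -0.30 and 0.39. On scales that keep the difference between tables the direction turned: it was -0.295 as deposited and -1.112 with each table scaled to its library totals, and the pooled peak score of LKO was 0.506 of that of WT at the median member and 0.507 at the median of all shared peaks.

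Both LKO libraries lay below both WT libraries in 451 members, 23.0% (21.2 to 24.9%), and above both in 571, 29.1% (27.2 to 31.2%). The background over all shared peaks was 25.2% below and 29.8% above. The members were thus near the background in both directions, and a change of scale between tables would move all of them alike. Pairs within 1 kb of a TSS were higher in 28.3% and lower in 21%, and the 102 pairs beyond 50 kb in 41.2% and 21.6%. Shares over all shared peaks at these distances were not computed, so nothing particular to first introns is read from them.

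Members with an IR1 stood differently from those without. Each pair was classed by the window of its WT peak only. Of 324 shared members with an IR1, 44.1% (38.8 to 49.6%) were higher in both LKO libraries and 15.4% (11.9 to 19.8%) lower. Of 1636 without, 26.2% (24.1 to 28.3%) were higher and 24.5% (22.5 to 26.7%) lower. The pattern was not limited to first introns, since all shared peaks with an IR1 were higher in 44.7% and lower in 17.2%. These intervals are over peaks and hold no variation between libraries, of which each genotype had 2. The median difference was 0.21 with an IR1, -0.00 without and 0.33 with at most 1 mismatch. Leaving out 1 library at a time gave medians of 0.13 to 0.22 with an IR1 and -0.01 to 0.02 without. The lowest, 0.13, was without WT replicate 1 and so rested on the shallow WT replicate 2. The log2 ratio of pooled peak scores, looked at after the other values were known, had a median of -0.80 with an IR1 and -1.02 without, so on that scale both groups were lower in LKO and the members with an IR1 less so.

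The share that was higher was larger with an IR1 in each quartile of shared peaks by mean level. Higher in both LKO libraries were 51.0% with an IR1 against 34.2% without in the weakest quartile, 38.3 against 26.4% in the second, 36.8 against 20.2% in the third and 49.2 against 22.8% in the strongest. The groups with an IR1 held 51, 60, 87 and 126 pairs. The intervals overlapped in the weakest quartile (37.7 to 64.1% against 29.9 to 38.7%) and the second (27.1 to 51.0% against 22.5 to 30.7%), and not in the third and strongest. The median differences were 0.40 against 0.23, 0.09 against -0.01, 0.08 against -0.12 and 0.23 against -0.07, from the weakest quartile to the strongest. With an IR1 their intervals included 0 in the second quartile (-0.19 to 0.41) and the third (-0.08 to 0.25). The larger share did not hold for the 12 members of the weakest quartile with at most 1 mismatch, of which 16.7% were higher. Limited to pairs without high input, 43.6% and 26.4% were higher.

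**Figure D4:**
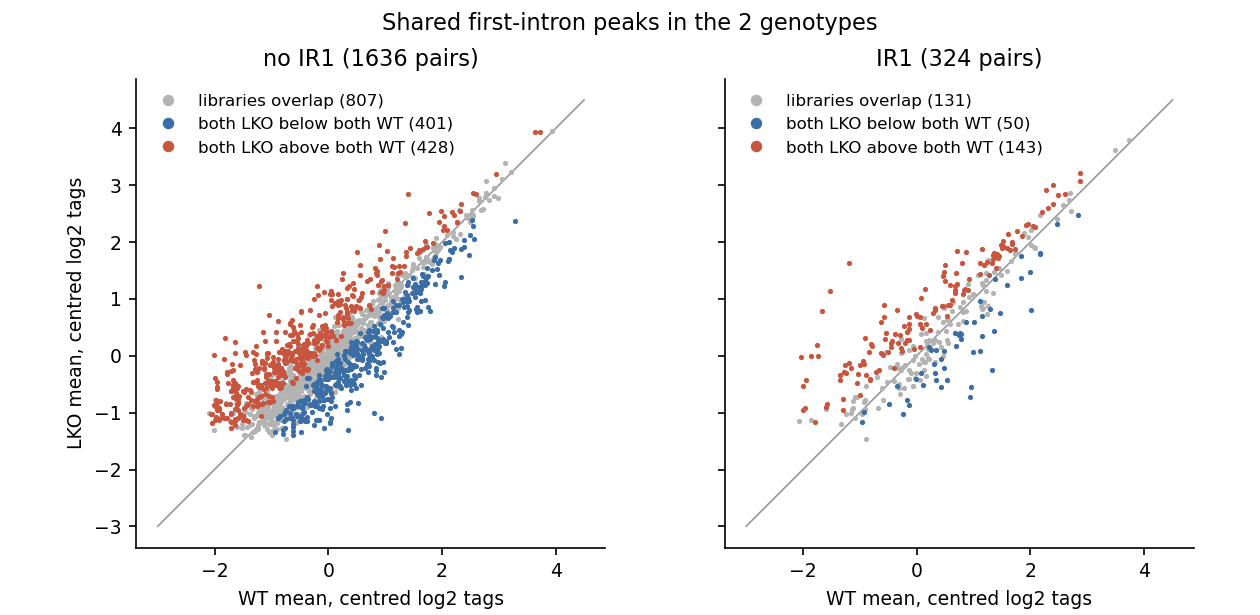
Mean of the 2 LKO libraries (vertical axis) against the mean of the 2 WT libraries (horizontal axis), in log2 tags relative to each library's median over shared peaks, for shared first-intron members without an IR1 (left, 1636) and with one (right, 324). Points above the diagonal are higher in LKO, and 143 of the 324 with an IR1 were higher in both LKO libraries against 428 of the 1636 without.

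The members with the largest differences were chosen for them, so their values describe and test nothing. Of the 5 most negative, 4 lay in Tex45, Ahcyl2, Gldn and Smurf1. Tex45 (chr8:3474710-3474920) stood at 0.90 and 0.96 in WT and -1.26 and -0.94 in LKO. Gldn, with 0.86 and 1.03 in WT and -1.24 and -0.20 in LKO, and Smurf1 each held an IR1 with 1 mismatch. Smurf1, a ubiquitin ligase gene, had 1.45 and 1.21 in WT and -0.55 and 0.05 in LKO. The WT values were all above the LKO values at each of these 4 peaks.

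The 5 most positive lay in Hsd11b1, Micall2, Arhgap26, Ctdspl and Hspg2. Hsd11b1 (chr1:193251341-193251551) encodes the enzyme that regenerates active glucocorticoid in liver. It stood at -1.17 and -1.20 in WT and 1.68 and 1.58 in LKO, a difference of 2.81. Its peak held an IR1 with 1 mismatch, as did that of Micall2, which stood at -1.06 and -1.99 in WT and 0.92 and 1.36 in LKO. The WT values of these 5 rested on few reads, with 2.55 to 6.05 estimated tags in WT replicate 2 and 21.4 to 37.4 in WT replicate 1.

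**Figure D5:**
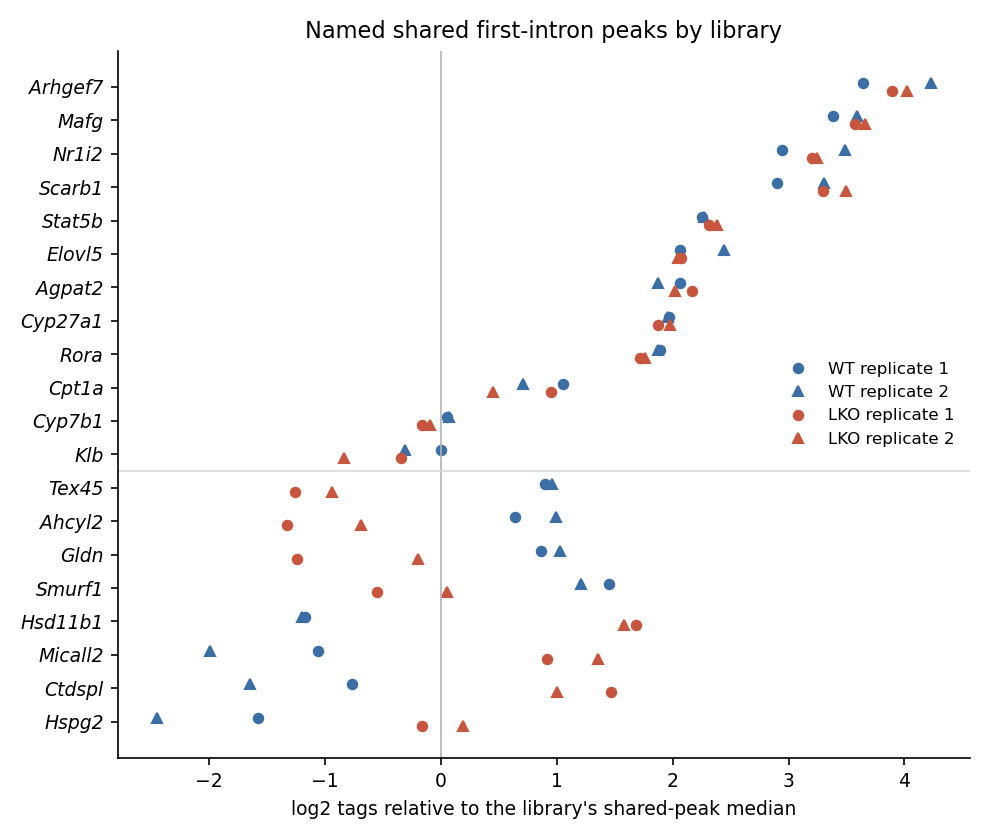
log2 tags relative to the library's median over shared peaks (horizontal axis) at named shared first-intron peaks, 1 point for each ChIP library, WT in blue and LKO in red; each gene is shown by its strongest shared peak named in the text. The 12 genes above the line were named for their lists or levels, and the 8 below it for the size of their difference, such as -2.03 at Tex45 and 2.81 at Hsd11b1.

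The genes holding members were numerous and mostly held 1 peak. In WT 2438 genes held one, 11% of RefSeq genes with an intron, and in LKO 1745, or 7.84%. Of these genes 1522 were common, 62.4% of the WT genes and 87.2% of the LKO genes. More than 1 member was found in 31.2% of the WT and 25.2% of the LKO genes. The intron belonged to the gene that the table names as nearest for 3621 WT members, 92.6% (91.7 to 93.4%). For 282 it belonged to another gene, as at Zfhx2, where the table names Zfhx2os, and Gldn, where it names Gldnos.

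Rora, a nuclear receptor gene of the clock and lipid metabolism, held the most members in both lists, 14 in WT and 10 in LKO, of which 8 were shared. These counts are not scaled to intron length. The Rora members lay in first introns of 542102 and 58083 bp from separate transcripts, against a median of 23156 bp over WT members. Of these 8 WT peaks, 4 were lower in both LKO libraries, 2 higher and 2 overlapped. The strongest lay 1470 bp from the TSS (chr9:69291206-69291416) and stood at 1.89 and 1.87 in WT and 1.72 and 1.76 in LKO, the LKO values just below the WT values. Another at 23655 bp stood at 1.53 and 1.53 in WT and 1.23 and 1.29 in LKO. The weak peak at 9817 bp went the other way, from -1.63 and -1.73 to -0.30 and -0.84. Ext1, a heparan sulfate polymerase gene, followed with 11 and 6, all 6 of them shared. Shroom3, an actin-binding protein gene, had 10 and 9, and Wwc1, which encodes the Hippo regulator KIBRA, had 9 in each. The first introns of these genes were long too, at 236830 bp in Ext1, 96921 and 110083 bp in Shroom3 and 64685 bp in Wwc1.

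In the gene lists that follow, counts of lower and higher members stand beside the background of 25.2% and 29.8%. A gene is given by its strongest member unless others are named. Counts of genes holding a member stand beside 11% of RefSeq genes with an intron in WT and 7.84% in LKO. In WT most genes of each list had a peak of some class, such as 13 of 16 bile acid synthesis and conjugation genes. The counts were not compared at equal intron length or with other genes that had a peak. No preference for first introns is read from them. Of the FXR and FGF15 feedback genes, 6 of 13 held a member in WT and 3 in LKO. They were Nr1h4, Rxra, Nr5a2, Fgfr4, Klb and Mafg. Klb held 5 members in WT and 3 in LKO, and all 3 were shared. The strongest, shown above, stood at -0.00 and -0.31 in WT and -0.34 and -0.84 in LKO. The one at 8739 bp from the TSS stood at -0.24 and -0.59 in WT and -0.73 and -0.92 in LKO. At both, the LKO values lay below the WT values. The one at 1068 bp stood at -0.97 and -0.66 in WT and -1.34 and -0.75 in LKO, and these overlapped. The WT-only Klb members had 4.17 and 5.62 log2 tags at 5864 bp and 4.17 and 5.02 at 2348 bp. Fgfr4 held 1 member in WT, 307 bp from the TSS, with 4.75 and 5.57 log2 tags and a high input of 2.93, and none in LKO. Nr1h4 itself, the FXR gene, held a WT-only member with 4.30 and 5.58 log2 tags. Of the 5 shared members of the list 2 were lower, both in Klb, and 0 higher.

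Of bile acid synthesis and conjugation genes, 6 of 16 held a member in WT and 4 in LKO. Cyp27a1, which starts the alternative pathway, had its strongest at 7695 bp (chr1:74721125-74721335), at 1.97 and 1.96 in WT and 1.87 and 1.98 in LKO, with a high WT input of 1.87. The ranges overlapped, as they did at its shared member at 5945 bp. Its shared member at 8342 bp was lower, from 0.41 and 0.64 in WT to -0.23 and 0.25 in LKO. Cyp7b1, the oxysterol hydroxylase of the same pathway, had 0.05 and 0.07 in WT and -0.16 and -0.09 in LKO. Its second shared member went the other way, from -1.25 and -1.69 in WT to -0.62 and -0.67 in LKO. Amacr, the racemase of side-chain oxidation, had -0.83 and -0.13 in WT and 0.22 and 0.61 in LKO. Of 6 shared members 2 were lower and 2 higher. Transporter genes held members at 5 of 17 in WT and 2 of 17 in LKO. Atp8b1, a canalicular phospholipid flippase, held all 4 shared ones. Its strongest stood at 1.57 and 1.55 in WT and 1.64 and 1.99 in LKO, and Abcc3, a basolateral exporter, had a WT-only member with 4.78 and 4.63 log2 tags.

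Nuclear receptor genes held members at 14 of 32 in each list, 13 of them common. Nr1i2, which encodes the xenobiotic sensor PXR, had the strongest (chr16:38288944-38289154), at 2.94 and 3.49 in WT and 3.20 and 3.25 in LKO. Its input was high in both genotypes, at 1.92 in WT and 2.57 in LKO. Rara, a retinoic acid receptor, had 1.56 and 1.82 in WT and 1.59 and 1.30 in LKO. The values of both overlapped between genotypes. Of 23 shared members 8 were lower and 3 higher, beside 25.2% and 29.8% of all shared peaks. Rora alone held 4 of the lower and 2 of the higher ones, and members in 1 gene are not independent of each other. Nr1i2 held 2 of the lower ones, at 1.5 and 1.57 in WT and 1.10 and 0.56 in LKO and at 1.29 and 1.29 in WT and 0.75 and 0.89 in LKO. Hepatocyte transcription factor genes held members at 11 of 26 in WT and 10 in LKO, and 3 of 13 shared members were lower and 4 higher. Stat5b, the growth hormone effector, stood at 2.25 and 2.27 in WT and 2.31 and 2.38 in LKO. Nfic, a nuclear factor I gene with a high LKO input of 3.40, stood at 2.03 and 2.15 in WT and 2.19 and 2.25 in LKO, both LKO values just above in each case. Stat3, an effector of interleukin signalling, went the other way, from 1.55 and 1.84 in WT to 1.30 and 1.19 in LKO.

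Lipoprotein and cholesterol genes held members at 15 of 37 in WT and 14 in LKO, 14 of them common. Of 20 shared members 8 were higher in LKO and 1 lower, beside 29.8% and 25.2% of all shared peaks. Of the 8, 7 lay in Apoc2, Lipc, Lrp1, Sdc1, Sort1, Abca1 and Insig2, named after their values were seen. They included Abca1, the cholesterol exporter that forms HDL, with -0.46 and -0.63 in WT and 0.61 and 0.18 in LKO. They also included Insig2, an inhibitor of SREBP processing, with -0.30 and -0.10 in WT and 0.21 and 0.23 in LKO. The strongest of the list did not separate: Scarb1, the HDL receptor, stood at 2.90 and 3.31 in WT and 3.30 and 3.5 in LKO (chr5:125313409-125313619), and Lipg, endothelial lipase, at 2.51 and 3.03 in WT and 2.78 and 2.96 in LKO. Sdc1, a heparan sulfate proteoglycan gene of remnant uptake, had its strongest at 2.04 and 2.36 in WT and 2.10 and 2.25 in LKO, and Lipc, hepatic lipase, at 1.54 and 1.42 in WT and 1.42 and 1.41 in LKO, where the ranges met at 1.42. Scarb1 held 8 members in WT, 5 of them shared.

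Fatty acid and triglyceride genes held members at 17 of 36 in WT and 15 in LKO, with 4 of 25 shared members lower and 4 higher. Elovl5, a fatty acid elongase gene, stood at 2.06 and 2.44 in WT and 2.07 and 2.05 in LKO. Agpat2, an acyltransferase of triglyceride synthesis with a 1-mismatch IR1 in its peak (chr2:26600830-26601040), stood at 2.06 and 1.87 in WT and 2.17 and 2.02 in LKO. Cpt1a, the gate of mitochondrial fatty acid entry, stood at 1.05 and 0.71 in WT and 0.95 and 0.45 in LKO. Elovl2, another elongase gene, stood at 0.91 and 1.08 in WT and 1.13 and 1.04 in LKO. All 4 overlapped between genotypes, while another Agpat2 member was higher, from 1.45 and 1.37 to 1.76 and 1.84, and another Cpt1a member lower, from 0.16 and 0.40 to -0.44 and -0.43. Glucose and insulin genes held members at 11 of 30 in WT and 8 in LKO, with 1 of 8 shared members lower and 1 higher. Pik3r1, the regulatory subunit of PI3-kinase, stood at 0.52 and 0.26 in WT and 0.05 and 0.06 in LKO, the LKO values lower. Fbp1, a gluconeogenic phosphatase, had -0.37 and 0.15 in WT and -1.09 and -0.19 in LKO, which overlapped, and Ghr, the growth hormone receptor, 0.02 and -0.23 in WT and 0.19 and -0.37 in LKO, which overlapped as well. Gcgr, the glucagon receptor, had a WT-only member with 4.87 and 5.72 log2 tags.

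Drug and xenobiotic genes held members at 5 of 24 in WT and 4 in LKO. Their 9 shared members lay in only 4 genes, and 7 were lower in LKO and 0 higher, where the background was 25.2% and 29.8%. Ephx1, microsomal epoxide hydrolase, stood at 0.64 and 0.21 in WT and -0.38 and -0.72 in LKO (chr1:181014756-181014966). Ugt1a1, the bilirubin glucuronosyltransferase, stood at 1.69 and 1.83 in WT and 1.60 and 1.22 in LKO, with a high WT input of 3.40. Por, the electron donor of cytochrome P450 enzymes, stood at 1.32 and 1.69 in WT and 1.26 and 1.12 in LKO, with a high LKO input of 3.38, while its peak at 8887 bp had 0.41 and 0.74 in WT and 1.06 and 0.47 in LKO and overlapped. The member of Sult2a8, a bile acid sulfotransferase, stood at -0.51 and -0.37 in WT and -0.79 and -1.22 in LKO. Members in 1 gene are not independent of each other. Autophagy and lysosome genes held members at 6 of 21 in WT and 2 in LKO. The strongest, in Map1lc3a, which encodes LC3A, was WT-only, with 7.16 and 7.63 log2 tags and a high input of 3.21, and 0 of 3 shared members were lower and 1 higher. Tfeb, the master regulator of lysosomal genes, stood at 0.03 and 0.24 in WT and 0.21 and 0.06 in LKO, which overlapped.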

How the data were processed

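FXR was measured by ChIP-seq in liver chromatin of 2 genotypes, with 2 ChIP libraries and 1 input library each. According to the labels and the study's methods, chromatin was fixed with DSG and formaldehyde, precipitated with antibody E4B8P and sequenced single-end. The submitters' processing notes name mm10, Bowtie 1.2 and HOMER 4.10. HOMER was run by the authors in its factor style on pooled ChIP against input, per the file headers, with limits of 0.05 on the adjusted p-value and 1 on the log2 fold change. The deposited values are regularized log2 tags scaled to library totals in each table separately, and the deposited peak score is a signal of pooled tags per 10000000. The authors' columns of ChIP against input (log2 fold change, p-value and adjusted p-value) were not used.

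Peaks were grouped by the deposited annotation, with introns matched to RefSeq transcripts of GRCm38.p6, the build of mm10. Overlap was 1 bp or more. Tags were estimated from log2 values and library totals. IR1 was scored with at most 2 mismatches in 12 bases within 100 bp of the centre. Intervals are Wilson, Poisson or order-statistic at 95%. No test between genotypes was run. Code was tested on simulated data and ran in Python 3.11.15 with scipy 1.17.1, pandas 2.3.3, numpy 2.4.6 and matplotlib 3.10.9. Named peaks were the strongest of up to 4 genes a list by WT mean, the 5 highest shared members of each genotype, the 3 strongest of each list alone and the 5 largest differences in each direction among peaks within the 95th input percentile, the 3 strongest with at most 1 mismatch, the 3 genes with most members, Klb and Fgfr4. Of the Klb peaks 1 sequence is printed, and some peaks that the rule names are not reported here. Members, lists and rules were chosen with earlier results of these data known. Replicates are separate libraries, and the sources used here do not say whether each came from 1 mouse. Alternatives covered peak strength, input, depth, gene match, distance, overlap, motif limits, centring and single libraries.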

Additional observations from a re-analysis of the deposited data

How the results depend on the processing

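No paired analysis was possible because the genotype difference is a description and comes from no test. Libraries of the same replicate number differed by a median of 0.035 and 0.030, and those of unlike number by 0.044 and 0.052. Of 62 alternative values 35 stayed within the error of the value as reported. Requiring that the intron belong to the nearest gene gave first-intron shares of 18.1% in WT and 18.3% in LKO. The overlap was 54.9% in WT and 86.9% in LKO when both lists were limited to peaks at or above their median level, 47.2% and 74.7% with the input limit, and in WT 76.1% with at least 10 estimated tags in both libraries and 69.2% with the list limited to the LKO length. The IR1 share was 15.1% and 21.5% at or above the median level, 2.45% and 3.69% with at most 1 mismatch, and 13.7% for WT at the LKO length. The median distance was 5310 bp in WT at or above the median level. The relative level was -0.026 in WT and -0.024 in LKO beyond 1 kb, -0.049 in LKO at or above the median level and -0.021 in LKO by means. Without 1 replicate it was -0.015 to 0.019 in WT and -0.008 to 0.000 in LKO. The difference between genotypes was 0.072 by means, 0.025 to 0.054 without 1 library, -0.295 as deposited, -1.112 on library totals and -0.983 by peak score, since only centring removes the scale of the tables. Without 1 WT library the separated shares were 33.8 to 37.1% lower and 40.7 to 41.7% higher, against 35.3 to 38.6% and 41.1 to 42.0% of all shared peaks, as fewer values have to separate. The scale on library totals, the peak score, the list at LKO length and the shares without 1 WT library were chosen after seeing the data.

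Counts in WT replicate 2 limit what can be said of weak members, since a member there rested on a median of 9.12 estimated tags. Peaks were called on pooled libraries, so presence in 1 list has no replicate check.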

Other observations

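Genes with a member also had a promoter peak more often than genes with an intron at large. In WT a promoter peak was assigned to 17.8% (16.4 to 19.4%) of the genes that hold a member, to 16.6% (15.3 to 18%) of the genes with a later-intron peak and to 9.50% of all genes with an intron. In LKO the shares were 11.8% (10.4 to 13.4%), 11.6% (10.3 to 13%) and 6.01%. First and later introns did not differ beyond their intervals.

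Repeat elements were named in the detailed annotation of 19.0% (17.8 to 20.3%) of WT and 17.4% (15.9 to 18.9%) of LKO members, close to the 18.7% and 15.9% of later-intron peaks and below the 24.3% and 20.5% of intergenic peaks. Among the members with the largest differences, those in Tex45, Smurf1 and Hsd11b1 were annotated to a repeat.

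The C/EBP letters TTGCNNAA were in 19.3% (15.9 to 23.2%) of the 451 shared members that were lower in both LKO libraries and in 13% (10.5 to 16.0%) of the 571 that were higher. These intervals overlapped, and members whose libraries overlapped had 15.8% (13.6 to 18.3%). For the IR1 the order was the opposite, with 11.1% (8.51 to 14.3%) and 25% (21.7 to 28.8%), which restates the IR1 counts given above. The letters shared by BCL6 and STAT factors were in 6.21% (4.33 to 8.83%) and 5.08% (3.56 to 7.20%). These shares were looked at after the values were seen.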
